A study of Mus musculus with 6 samples.

Results

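The interferon regulatory factors are a family of transcription factors that share a DNA-binding domain and recognise repeats of the letters GAAA. Irf4 and Irf8 act largely in blood cells, where they bind DNA together with partners such as PU.1 and Spi-B, and in pre-B cells they promote light-chain gene rearrangement and the step from cycling to resting cells. Irf9 joins STAT2 in the complex that switches on genes in response to type I interferon, and Irf7, itself one of those genes, amplifies interferon production and is abundant in plasmacytoid dendritic cells. Irf3 and Irf5 are switched on below receptors that sense nucleic acids, Irf1 is induced by interferon gamma, and Irf2 opposes Irf1 at shared sites. Members were taken by family membership and not by their values: of 8 genes listed (Irf1, Irf2, Irf3, Irf4, Irf5, Irf7, Irf8 and Irf9), 7 were measured, each by 1 probe set that matches a single gene symbol, among 11271 genes tested. No probe set of this kind was given for Irf2, which was not analysed here.

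The study asked what the transcription factor Mef2c does in B-lymphoid progenitors. Gene expression was measured on Affymetrix mouse genome arrays in pre-B cells sorted from the bone marrow of mice aged 9 months as cells positive for B220 and negative for IgM and CD43, with 3 control and 3 Vav-Cre Mef2cfl/fl (Mef2c-deficient) arrays. Vav-Cre removes the floxed gene throughout the blood system, so other blood cells of the deficient mice lack Mef2c too. By the study's methods, controls could be Mef2cfl/fl, Mef2cfl/+ or Vav-Cre Mef2cfl/+ mice of the same age, and which of these each control array came from is not stated. The arrays are described as independent but the animals are not named, so p-values measure the spread between these arrays, and their number limits the precision. The deleted gene, Mef2c, was not analysed here and gives no check of the labels.

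All levels below are log2 of the deposited array intensity, and every difference is Mef2c-deficient minus control. Adjusted p-values are from limma, a linear model with a shared estimate of variance, with Benjamini-Hochberg adjustment over all 11271 genes. The deposited values reach 2144602, and 2.0% lie above the highest number a scanner records, so they are back-transformed log values. The base was not stated. The highest value is 21.03 as a log2 and 14.58 as a natural log. Base 2 would return log2 intensities to the scale of the scanner, so values above its limit make base e the likelier. Base 2 is still assumed in what is printed here. With base e, every printed level, SD, SE and log2 difference shrinks to 0.69 times its value. Sums of deposited values cannot be corrected by this factor, and with base e they are not sums of intensity. The median difference of all genes was -0.36, so each member is also given relative to that median. The array labelled Mef2c-deficient replicate 3 stood apart: the median of its plasmacytoid dendritic cell markers was 4.24 above the control mean, against 0.51 and 1.10 on the other deficient arrays, so results are also given without it. Of 13 pre-B-cell markers tested, 11 had a lower mean in the deficient arrays and 4 of those had an unadjusted p under 0.05, with a median difference of -0.84, beside 62.3% and 20.9% of all genes. The median of these markers was -0.55 when that array was left out, and 6 were lower at that p, beside 23.7% of all genes. Vpreb1, a surrogate light chain gene, was not analysed here. In these bulk samples, fewer cells of a type and less RNA per cell cannot be told apart.

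The promoters of the 4 members compared most closely are shown as the 250 bases before the RefSeq start site (GRCm38.p6, each on the strand of its gene), so that their elements can be set beside the levels. The Irf4 window is chr13:30748983-30749232 on the plus strand, the Irf8 window chr8:120736108-120736357 on the plus strand, the Irf7 window chr7:141266425-141266674 on the minus strand and the Irf9 window chr14:55603735-55603984 on the plus strand. Capitals mark a TATA box (TATAAA) or a gamma-activated site (TTCNNNGAA), an element of interferon gamma responses.
Irf4: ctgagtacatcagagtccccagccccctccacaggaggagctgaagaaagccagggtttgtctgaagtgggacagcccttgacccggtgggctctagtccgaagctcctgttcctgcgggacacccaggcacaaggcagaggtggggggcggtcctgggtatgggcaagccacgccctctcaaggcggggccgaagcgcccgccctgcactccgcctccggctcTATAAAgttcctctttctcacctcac
Irf8: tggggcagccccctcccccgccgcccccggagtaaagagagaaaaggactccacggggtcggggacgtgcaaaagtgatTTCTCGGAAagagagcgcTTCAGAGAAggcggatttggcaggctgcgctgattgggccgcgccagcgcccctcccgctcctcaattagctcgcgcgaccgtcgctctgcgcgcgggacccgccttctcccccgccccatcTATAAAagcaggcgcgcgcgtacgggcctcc
Irf7: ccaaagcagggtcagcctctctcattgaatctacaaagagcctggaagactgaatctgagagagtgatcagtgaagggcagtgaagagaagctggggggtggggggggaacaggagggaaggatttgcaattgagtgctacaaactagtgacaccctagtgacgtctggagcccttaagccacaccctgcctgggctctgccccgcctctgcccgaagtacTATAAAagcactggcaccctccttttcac
Irf9: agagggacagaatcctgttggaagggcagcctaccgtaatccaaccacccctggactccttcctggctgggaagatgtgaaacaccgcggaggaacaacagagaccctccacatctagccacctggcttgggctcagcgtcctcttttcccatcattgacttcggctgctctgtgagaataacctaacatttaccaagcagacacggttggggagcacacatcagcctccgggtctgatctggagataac
The start site lies just after the last base shown. The table used gives a second start site for Irf8 and for Irf9, whose windows are not shown, and the first in the order of the gene is printed here. Irf4 held a TATA box at -26 to -21, Irf7 at -29 to -24 and Irf8 at -31 to -26, while the Irf9 window held no match to any element searched. Irf8 held 2 gamma-activated sites, at -171 to -163 and -153 to -145. The windows searched ran on to 300 bases, past the start site. Both strands were searched, and over 32851 such windows of all genes a TATA box was found in 13.6% and a gamma-activated site in 8.3%. Also searched were the IRF repeat (GAAA, any 2 bases, then GAAA; in 3.44% of windows), its longer form in which CT follows (0.271%), the composite site for Ets and IRF factors (GGAA, any 2 bases, then GAAA; 2.72%), which can overlap the repeat, and the MEF2 consensus (3.19%). None of these 4 was found in the windows of Irf4, Irf7, Irf8 or Irf9, and a missing match says only that the letters are not in the window.

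None of the 7 members passed an adjusted p of 0.05, a threshold that 0.0177% of all genes passed. At an unadjusted p under 0.05, Irf4 was the 1 member on the lower side, where 20.9% of all genes lay, and Irf7 the 1 member on the higher side, where 5.32% lay. The 3 control and 3 deficient arrays did not overlap for Irf4 (lower, as for 27.1% of genes) or for Irf5 and Irf7 (higher, as for 10.6%). Irf1, Irf3 and Irf4 had a lower mean in the deficient arrays, as 62.3% of genes did, and Irf5, Irf7, Irf8 and Irf9 a higher one, as 37.7% did. With 3 arrays against 3, and replicate numbers ignored as here, the exact permutation test of a single gene cannot give a p below 0.1.

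**Figure D1:**
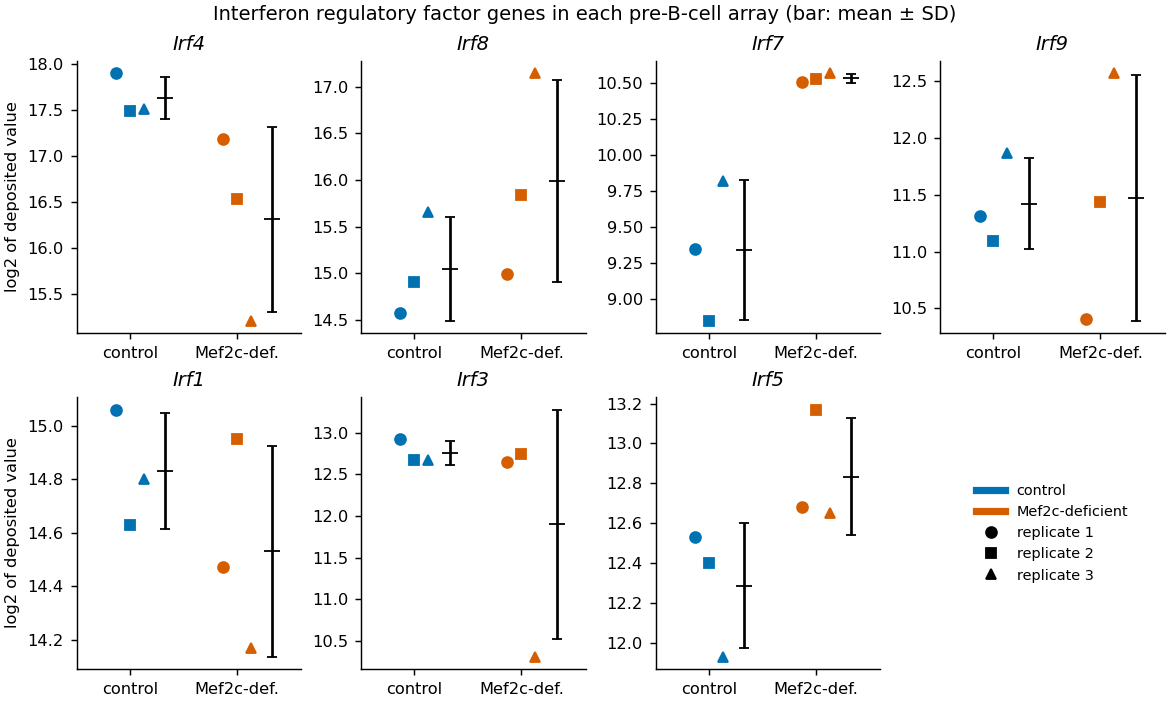
The log2 deposited intensity of each of the 7 members on every array, by group, with a line at the mean of each group and a symbol for each replicate number. Irf4 lies lower and Irf5 and Irf7 lie higher on all 3 Mef2c-deficient arrays than on any control array, and the other 4 members overlap.

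Irf4, which drives light-chain rearrangement and later plasma cell formation, measured 17.90, 17.49 and 17.51 in controls 1 to 3 and 17.19, 16.53 and 15.21 in the deficient arrays. Every deficient array lay below every control array, by at least 0.31, and deficient replicate 3 was the lowest. The means were 17.63 ± 0.23 (SD, n = 3) and 16.31 ± 1.0 (SD, n = 3), a log2 difference of -1.32 (SE 0.50), or -0.97 relative to all genes. The limma p was 0.0315 before and 0.161 after adjustment, and the two-sided exact permutation p was 0.1. Without deficient replicate 3 the log2 difference of Irf4 was -0.78, and without both arrays numbered 3 it was -0.84. The same-number differences of Irf4 were -0.71, -0.97 and -2.30. With the replicate number as a block its limma p was 0.0142 before and 0.113 after adjustment. The unadjusted limma p for Irf4 was under 0.05 in 13 of 20 alternatives. The limma p was 0.0938, 0.0613 and 0.0632 without control replicates 1, 2 and 3 in turn. It was 0.0583 without both arrays numbered 3, 0.0840 after cyclic loess and 0.0763 after centring.

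Irf8, which directs dendritic cell and monocyte fates as well as acting beside Irf4 in pre-B cells, measured 14.58, 14.91 and 15.66 in controls and 14.99, 15.84 and 17.14 in the deficient arrays. The groups overlapped, and within each group the array numbered 3 was the highest. Means were 15.05 ± 0.55 (SD, n = 3) and 15.99 ± 1.08 (SD, n = 3), a log2 difference of 0.94 (SE 0.57; adjusted p = 0.290 by limma), or 1.30 relative to all genes. The same-number differences were 0.41, 0.93 and 1.48, and with the replicate number as a block Irf8 had an unadjusted limma p of 0.0297 and an adjusted p of 0.139. Without deficient replicate 3 the log2 difference of Irf8 was 0.37, and without both arrays numbered 3 it was 0.67. These related factors with shared partners in B cells therefore had mean differences of opposite sign, and neither passed the adjusted threshold.

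Irf7, the amplifier of type I interferon, measured 9.35, 8.85 and 9.82 in controls and 10.51, 10.53 and 10.57 in the deficient arrays. All 3 deficient arrays lay above all controls, by at least 0.68, and within 0.07 of each other. The means were 9.34 ± 0.49 (SD, n = 3) and 10.54 ± 0.035 (SD, n = 3), a log2 difference of 1.20 (SE 0.33), or 1.56 relative to all genes. The limma p was 0.00687 before and 0.111 after adjustment, with a two-sided exact permutation p of 0.1. The same-number differences of Irf7 were 1.16, 1.69 and 0.75. With the replicate number as a block its limma p was 0.00934 before and 0.102 after adjustment. Deficient replicate 3, which stood apart for many genes, did not stand apart for Irf7, and without it the log2 difference was 1.18. The probe sets of the bacterial control transcripts, which are added at hybridisation and come from no mouse cell, also had higher means in the deficient arrays, by 0.49 to 1.84 over 14 probe sets, and the part of this in the Irf7 value was not tested. Irf7 had an unadjusted p under 0.05 under all 19 alternatives that tested it, with log2 differences from 0.95 to 1.49 and adjusted limma p from 0.0425 to 0.340.

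Irf9, the DNA-binding subunit of the type I interferon complex, measured 11.31, 11.09 and 11.87 in controls and 10.41, 11.44 and 12.57 in the deficient arrays. The deficient arrays spread over both sides of the controls. The means were 11.43 ± 0.40 (SD, n = 3) and 11.47 ± 1.08 (SD, n = 3), a log2 difference of 0.05 (SE 0.55; adjusted p = 0.948 by limma). The same-number differences were -0.90, 0.35 and 0.69, and without deficient replicate 3 the difference of the means was -0.50. It was also below 0 without control replicate 1 (-0.0076), without control replicate 2 (-0.12), with array weights (-0.13) and without both arrays numbered 3 (-0.27), so Irf9 has no settled direction. The deficient arrays lay close together for Irf7 and far apart for Irf9, although both belong to the interferon response.

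Irf5, which acts below Toll-like receptors and MyD88, measured 12.53, 12.40 and 11.93 in controls and 12.68, 13.17 and 12.65 in the deficient arrays. The deficient arrays lay above the controls by a margin of 0.11. The log2 difference of Irf5 was 0.54 (SE 0.31; adjusted p = 0.271 by limma), or 0.90 relative to all genes. It was 1.02 after quantile normalization, 1.10 with cyclic loess and 0.84 with arrays centred on their medians, and the unadjusted limma p was then 0.0161, 0.00989 and 0.0319.

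Irf3, which the kinase Tbk1 activates, measured 12.92, 12.67 and 12.67 in controls and 12.65, 12.74 and 10.31 in the deficient arrays. Only deficient replicate 3 was low. The log2 difference of Irf3 was -0.85 (SE 0.64; adjusted p = 0.368 by limma) with that array and -0.06 without it. Irf1, which interferon gamma induces, measured 15.06, 14.63 and 14.80 in controls and 14.47, 14.95 and 14.17 in the deficient arrays, which overlapped. Its log2 difference was -0.30 (SE 0.31; adjusted p = 0.512 by limma), and it was 0.01 after quantile normalization and 0.19 after cyclic loess, so its direction turned with the scaling.

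**Figure D2:**
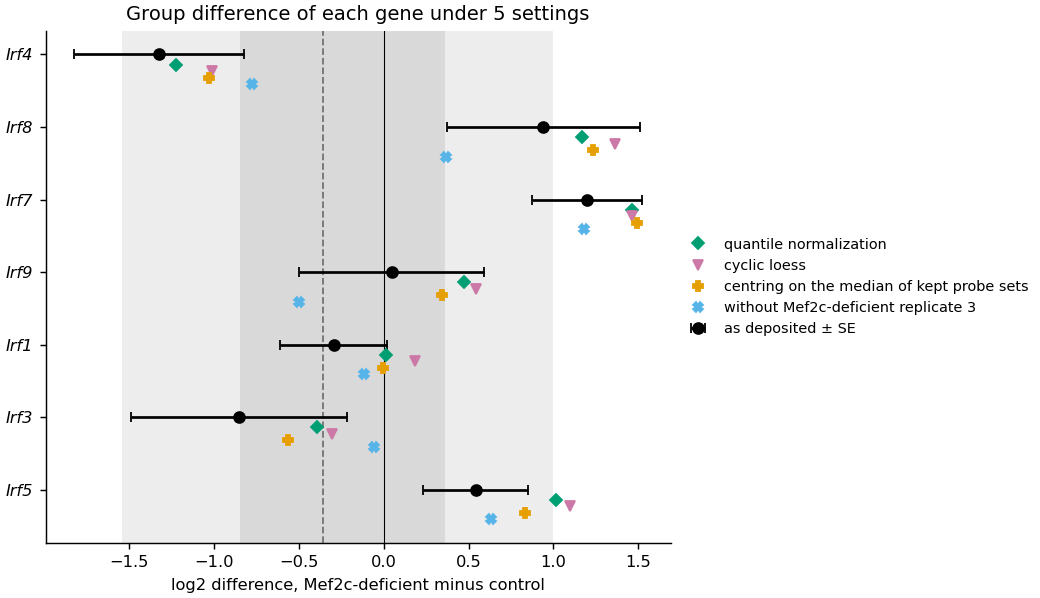
The log2 difference of each member, Mef2c-deficient minus control, with its standard error. Grey bands hold the middle of all 11271 genes (5th to 95th percentile, -1.54 to 0.99, and 25th to 75th, -0.84 to 0.35) and the dashed line is their median, -0.36. Irf7 lies above the wider band, and Irf4 and the other 5 members lie inside it.

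Set side by side, the mean deviation of Irf4 and Irf8 from their control means was -0.25, -0.16 and -0.16 in deficient replicates 1 to 3, and that of Irf7 and Irf9 was 0.08, 0.61 and 1.19. On the control arrays the same quantities were -0.10, -0.14 and 0.24 for Irf4 and Irf8 and -0.05, -0.41 and 0.47 for Irf7 and Irf9. The B-cell pair lay below the interferon pair on all 3 deficient arrays, by a mean of 0.82 on the log2 scale. The B-cell pair minus the interferon pair was -0.33, -0.77 and -1.35 on deficient replicates 1 to 3. It was -0.05, 0.28 and -0.22 on control replicates 1 to 3, so the same order held on control replicates 1 and 3. Without deficient replicate 3, the mean log2 difference was -0.21 for Irf4 and Irf8 and 0.34 for Irf7 and Irf9. The members of a pair did not share 1 pattern: the first mean averages a negative and a positive difference, and Irf9 lay below its control mean on deficient replicate 1 and close to it on replicate 2. No test was made of this contrast, since the pairs were chosen.

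Irf7 and Irf8 are also expressed by plasmacytoid dendritic cells, which carry B220, and Irf8 by conventional dendritic cells and monocytes, so markers of these cells are given beside them. All 11 plasmacytoid dendritic cell markers tested, of 15 listed, had a higher mean in the deficient arrays, as 37.7% of all genes did. At an unadjusted limma p under 0.05, 5 of them were higher, and the median difference was 1.97. With the replicate number as a block 8 of the 11 were higher at that p, beside 6.72% of all genes (5.32% without the block). Their summed deposited intensity ran from 26137 to 99428 in controls and from 66513 to 1094670 in the deficient arrays. Siglech, a surface lectin of these cells, measured 12.59, 12.51 and 15.53 in controls and 14.41, 16.55 and 18.54 in the deficient arrays. Within each group Siglech was highest on the array numbered 3, as Irf8 was, whereas Irf7 was nearly level over the 3 deficient arrays. Ptprs, a receptor phosphatase of these cells, measured 13.78, 13.41 and 13.92 in controls and 13.75, 14.31 and 15.54 in the deficient arrays.

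All 7 conventional dendritic cell markers tested, of 10 listed, had a higher mean in the deficient arrays, as 37.7% of all genes did. At an unadjusted limma p under 0.05, 2 of them were higher, or 4 with the block, beside 5.32% and 6.72% of all genes. Their median difference was 2.37. The summed deposited intensity of the list was 30087 to 41315 in controls and 42600 to 153529 in the deficient arrays. Most of that sum is Ccr7, which B cells also express, except on deficient replicate 3, where Clec10a (15.21) lay above Ccr7 (14.83). The list median of the deviations from the control mean is therefore given too. It was -0.79, -0.30 and 1.17 on the control arrays and 0.28, 1.87 and 5.63 on the deficient arrays. The median difference of the list was 0.80 when deficient replicate 3 was left out. Of 8 monocyte and macrophage markers tested, of 13 listed, 7 had a higher mean, beside 37.7% of all genes, with a median of 0.71. Their summed deposited intensity was 13988 to 67797 in controls and 22911 to 528573 in the deficient arrays. Among them Cd14 passed the filter only through the deficient arrays. The monocyte median was 0.42 without deficient replicate 3, and 1.31 and 1.14 without deficient replicates 1 and 2. At an unadjusted limma p under 0.05, 0 of these markers were lower and 1 higher, beside 20.9% and 5.32% of all genes. With the block 0 were lower and 3 higher, beside 23.1% and 6.72%. Without deficient replicate 3, 2 of these markers were lower and 1 higher at that p. The shares of all genes were then 23.7% and 7.07%. The brightest of these markers were Ccr7 (0.79, SE 0.60) and Clec10a (2.52, SE 1.54) of the conventional dendritic cells and Mpeg1 (2.64, SE 1.12) and Lyz2 (0.06, SE 1.67) of the monocytes, given as log2 differences. Cd300c, Runx2, Tcf4 and Ly6c2 of the plasmacytoid list were not analysed here. Without deficient replicate 3, 10 of 11 plasmacytoid markers had a higher mean and their median difference was 0.65. The part of these cells in the values of Irf7 and Irf8 was not tested.

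**Figure D3:**
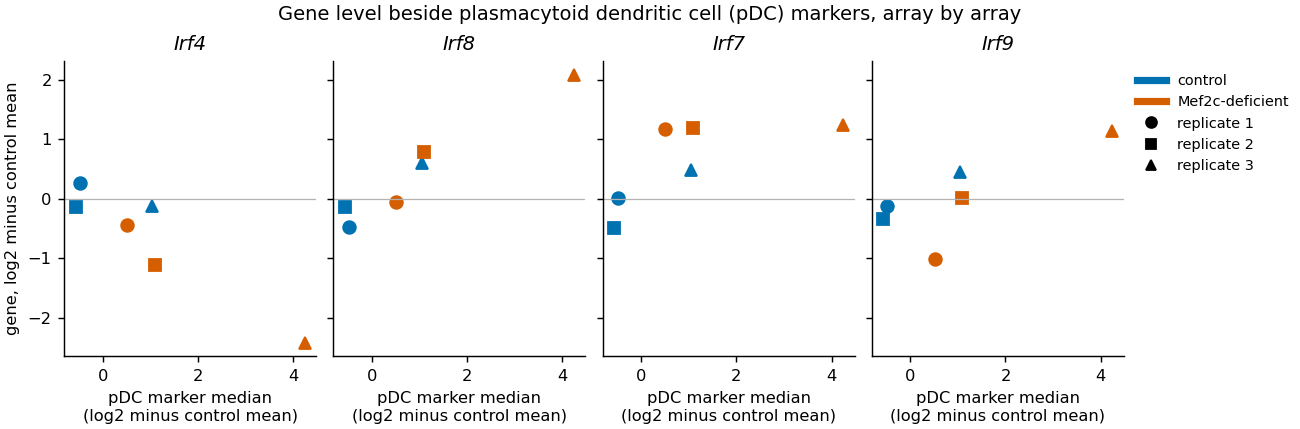
Each panel shows 1 member (Irf4, Irf8, Irf7 or Irf9) on the 6 arrays as its log2 deviation from its control mean. It is set against the median deviation of the plasmacytoid dendritic cell markers from their control mean. Irf8 is highest where the markers are highest, at 2.09 on deficient replicate 3, and Irf7 stays between 1.17 and 1.24 on the 3 deficient arrays.

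**Figure D4:**
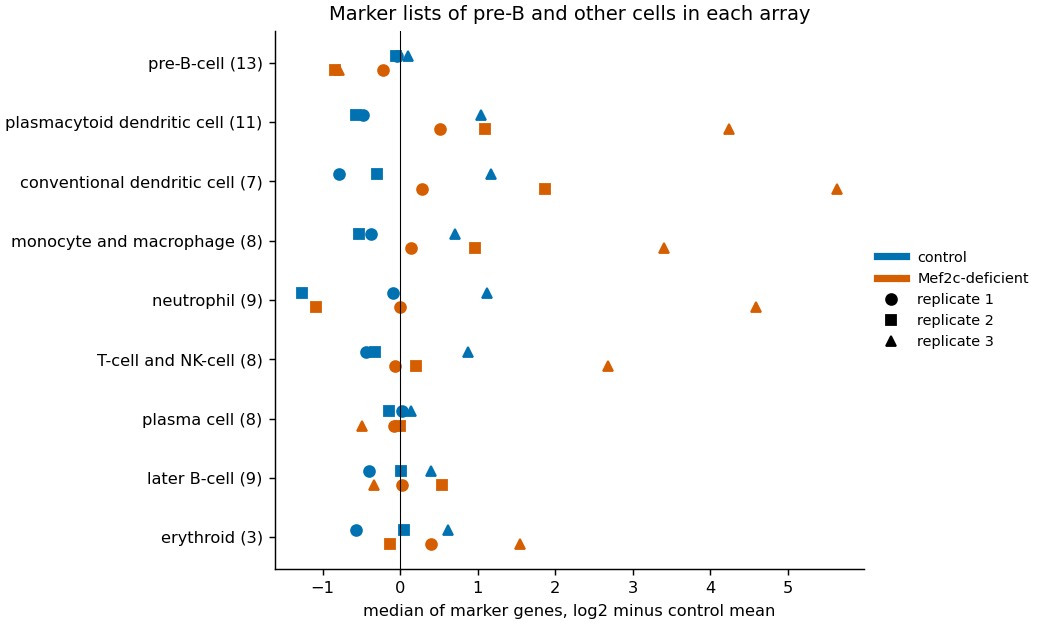
The median log2 deviation from the control mean over each list of cell type markers, for every array, with control in blue and Mef2c-deficient in orange and a symbol for each replicate number. Deficient replicate 3 is farthest from the controls for the dendritic cell, monocyte and neutrophil lists, and the pre-B-cell list lies below 0 on all 3 deficient arrays.

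Among 11 partners of Irf4 and Irf8, 6 had a lower mean and 1 of these, Tcf3, had an unadjusted limma p under 0.05. Over all genes 62.3% had a lower mean and 20.9% were lower at that p, and neither count lies above its share. Tcf3 encodes the E2A proteins, which act with Irf4 at light-chain enhancers, and its log2 difference was -1.28 (SE 0.39, adjusted p = 0.129). The Ikaros gene Ikzf1 had a difference of -0.48 (SE 0.34), the germinal centre repressor Bcl6 one of -0.60 (SE 0.54) and the dendritic cell factor Batf3 one of 0.26 (SE 0.26). The median of the list was -0.24, or 0.12 relative to all genes, and its sign changed in 6 of the alternatives.

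Of 14 genes tied to Irf4 and Irf8 in pre-B cells that were tested, 12 had a lower mean in the deficient arrays, 3 of them at an unadjusted limma p under 0.05 and none higher, with a median of -0.78. Over all genes 62.3% had a lower mean and 20.9% were lower at that p, and 3 of 14 is close to the latter share. With the replicate number as a block 5 of the 14 were lower at that p, beside 23.1% of all genes. Il7r, the receptor for the pre-B growth factor IL-7, had a log2 difference of -1.09 (SE 0.29). The recombinase genes Rag1 and Rag2 had -1.18 (SE 0.45) and -1.40 (SE 0.55), and Ccnd3, the cyclin of large pre-B cells, had -0.97 (SE 0.44). The median without deficient replicate 3 was -0.42, and over all alternatives it ran from -1.0 to -0.40. Rag1 and Rag2 also stand in the pre-B-cell marker list above.

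Among 13 interferon receptor and JAK-STAT genes tested, 8 had a higher mean, and the list median was 0.31 (0.67 relative to all genes). It was 0.66, 0.17 and 0.16 without deficient replicates 1, 2 and 3 in turn. Ifnar1, a subunit of the type I interferon receptor, measured 11.23, 11.49 and 11.68 in controls and 11.78, 12.69 and 13.76 in the deficient arrays, a log2 difference of 1.28 (SE 0.50). The deficient arrays of Ifnar1 all lay above the controls, with number 3 highest. Stat2, the partner of Irf9, had 0.90 (SE 0.51). The inhibitor of STAT signalling Pias1 had -1.07 (SE 0.35) and the phosphatase gene Ptpn11 had -0.73 (SE 0.30), and with Ifnar1 these were the 3 genes with an unadjusted limma p under 0.05. In the blocked fit 1 gene was lower and 2 were higher at that p. The shares of all genes were 23.1% and 6.72% there, and 20.9% and 5.32% without the block.

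Of 16 sensors and kinases above Irf3, Irf5 and Irf7 that were tested, 9 had a higher mean and 7 a lower one, with 2 on each side at an unadjusted limma p under 0.05. Tlr7, the receptor for single-stranded RNA that plasmacytoid dendritic cells express, passed the filter on dim probe sets (a mean log2 level of 7.26) only through its deficient arrays, so its count here is no support for a difference. It measured 6.14, 7.58 and 7.71 in controls and 7.76, 9.35 and 11.43 in the deficient arrays, a log2 difference of 2.37 (SE 0.89). Tlr4, the receptor for lipopolysaccharide, had 0.89 (SE 0.34). The signalling ligase gene Traf6 had -1.22 (SE 0.48), and Mavs, the adaptor of the cytosolic RNA sensors, had -0.70 (SE 0.30). In the blocked fit 1 gene of the list was lower and 3 were higher at that p. The shares of all genes were 23.1% and 6.72% there, and 20.9% and 5.32% without the block. The median of the list, 0.28, changed sign in 3 of the alternatives.

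The type I interferon response genes, the targets of Irf7 and Irf9, were split: 14 had a lower and 15 a higher mean of 29 tested, and the list median was 0.01 (0.36 relative to all genes). Oas3, counted as higher, passed the filter on dim probe sets only through its deficient arrays. Mx1, counted as lower, passed it only through its control arrays, so neither count is support for a difference. On the 3 deficient arrays the list median was -0.53, 0.26 and 0.42, and on the controls -0.20, -0.27 and 0.49. At an unadjusted limma p under 0.05, Dtx3l (-0.84, SE 0.33) and Herc6 (-1.0, SE 0.40), both of the ubiquitin system, were lower and Bst2 (2.23, SE 0.95), the tethering factor tetherin, was higher. Bst2 also stands in the plasmacytoid dendritic cell list. Cmpk2, a mitochondrial nucleotide kinase, had -1.31 (SE 0.57). Without deficient replicate 3 the list had 19 genes with a lower and 10 with a higher mean, and a median of -0.33. In the blocked fit 4 genes of the list were lower and 3 were higher at an unadjusted limma p under 0.05. Of all genes 23.1% were lower and 6.72% higher at that p with the block, and 20.9% and 5.32% without it. On deficient replicate 1, where Irf7 was above and Irf9 below every control, the median of this list was below that of every control. The deviations of Irf9 from its control mean were -1.01, 0.02 and 1.14 on deficient replicates 1 to 3. The relation of the list to either member was not tested.

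Of 19 genes of the interferon gamma and Irf1 response that were tested, 10 had a lower and 9 a higher mean, with a median of -0.01 whose sign changed in 8 of the alternatives. Gbp6, counted as lower, passed the filter on dim probe sets only through its control arrays. Tapbp, which loads peptide on MHC class I, had 0.86 (SE 0.30). The cytokine gene Il15, which passed the filter only through its control arrays, had -1.68 (SE 0.60), Nlrc5, the activator of MHC class I genes, had -1.15 (SE 0.42), and the interferon-induced GTPase gene Irgm1 had -0.81 (SE 0.30). Among the regulators of the family, 6 of 8 tested had a lower mean, beside 62.3% of all genes. The median of that list was -0.49 (-0.13 relative to all genes), and it was 0.02 after cyclic loess. Trim28 had -0.80 (SE 0.33), Trim21 -1.04 (SE 0.60), Fbxw7 -0.68 (SE 0.40) and Adar -0.38 (SE 0.31). Only Trim28, 12.5% of the list, was lower at an unadjusted limma p under 0.05, beside 20.9% of all genes. Of 14 interferon genes listed, 7 were measured, of which 6 fell below the filter on dim probe sets and 1, Ifna5, passed, with 0.38 (SE 0.50). No gene of these lists passed an adjusted limma p of 0.05.

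**Figure D5:**
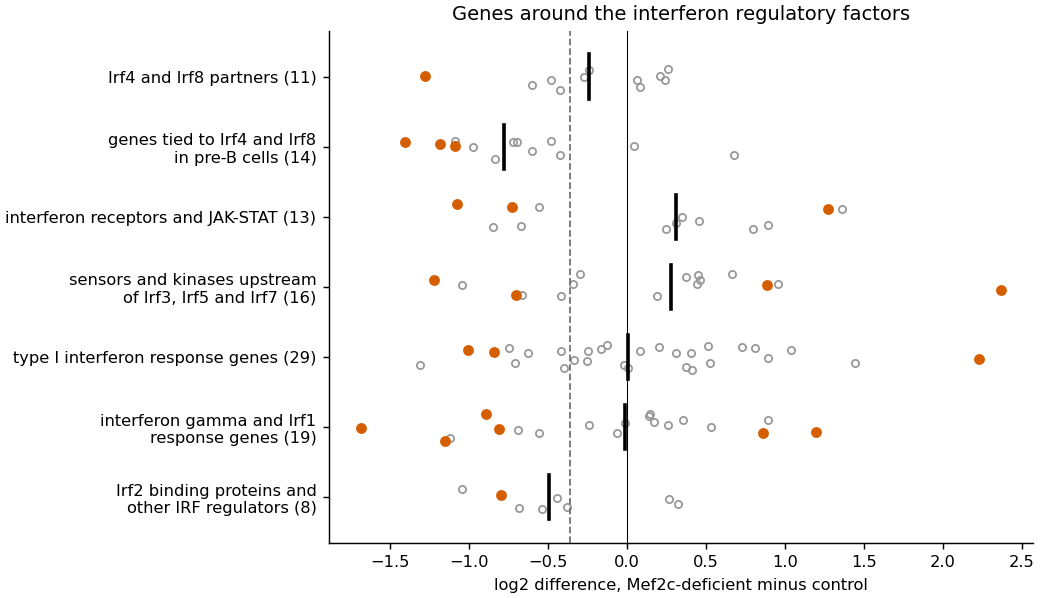
The log2 difference of every tested gene in each IRF pathway list, with genes at an unadjusted limma p under 0.05 filled in orange, the list median as a black bar and the median of all genes, -0.36, as a dashed line. The genes tied to Irf4 and Irf8 in pre-B cells have the lowest median, -0.78, and the type I interferon response genes spread to both sides of 0.01.

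The genes whose profile over the 6 arrays was nearest to each member, by the root mean square difference of log2 levels after each gene was set to its own mean, are a description of these arrays. For Irf4 they were Mbd4 (0.106), Cd46 (0.118) and Kat5 (0.119), and for Irf8 they were Sema4d (0.120), Il17rb (0.166) and Itgb2 (0.191). For Irf7 they were Gm15417 (0.196), Fes (0.219) and Tnxb (0.222), and for Irf9 they were Spcs3 (0.114), Smim19 (0.131) and Tmem50b (0.142). The nearest genes of Irf7 were farther from it than those of the other 3 members were from theirs.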

How the data were processed

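RNA of sorted pre-B cells from 3 control and 3 Mef2c-deficient samples was hybridised to Affymetrix mouse genome arrays. The authors summarised the arrays by RMA, per the labels, and deposited 1 intensity for each of 23913 probe sets on a linear scale; the base of the exponent is not given in the sources used here. Probe sets with exactly 1 symbol in the platform annotation (17690) were used, 524 with several symbols and 5699 with none were left out. Log2 of the deposited intensity was fitted with limma 3.58.1 in R 4.3.3 (lmFit and eBayes, group only, two-sided). Probe sets with a mean log2 level above the 40th percentile (7.26) were kept, the brightest kept probe set stood for a gene, and p-values were adjusted by the Benjamini-Hochberg method over 11271 genes. The fit was tested on simulated data. The differences are not recomputed from scanner files, so the background correction of the authors is part of every value.

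Samples carry replicate numbers. Deviations from the group mean correlated at 0.348, 0.226 and 0.373 for arrays of the same number, and at -0.309 to 0.129 otherwise, so the numbers were taken to pair the arrays, and the fit with the number as a block was an alternative. Unless the block is named, the printed SE, limma p and exact permutation p do not use this pairing. The other alternatives were the filter, the scaling, the probe set that stands for a gene, leaving out probe sets whose names end in _x_at or _s_at, which can match other genes, or _a_at, which match several transcripts of 1 gene (Irf1, Irf3, Irf7 and Irf9), an offset of 16, the variance model, array weights, the t-test of the study's methods and leaving out each array. Leaving out both arrays numbered 3 was chosen after seeing the data. Members and lists were chosen with earlier results of these data known. All members were named, with up to 4 genes of each pathway list by smallest unadjusted p, bright cell type markers and the 3 genes of nearest profile.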

Additional observations from a re-analysis of the deposited data

How the results depend on the processing

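The directions of Irf3, Irf4, Irf5, Irf7 and Irf8 held under every alternative that tested them. The log2 difference of Irf1 was 0.015 after quantile normalization and 0.19 after cyclic loess. That of Irf9 was -0.13 with array weights and -0.27 without both arrays numbered 3, and leaving out 1 array at a time gave -0.50 to 0.58. Irf7 passed the adjusted limma threshold only with array weights (1.23, adjusted p = 0.0425), a setting under which 1154 genes passed, against 2 in the fit as reported. The number of genes past the adjusted threshold was 0 after quantile normalization, cyclic loess or centring, by the methods' t-test, with the replicate block and without both arrays numbered 3, 1 without the probe sets with these name endings (_x_at, _s_at, _a_at), and 0 to 159 when single arrays were left out (159 without deficient replicate 3). With the replicate block, 3 members (Irf4, Irf7 and Irf8) had an unadjusted p under 0.05 against 2 without it, and no member's adjusted call changed. The number of members with an unadjusted p under 0.05 was 1 without those probe sets (Irf4, since Irf7 was not tested there), 1 by the methods' t-test, 1 without both arrays numbered 3 (Irf7), and 1 to 3 when single arrays were left out. For each of these the cause was not tested. Dim genes are limited by signal over background: 6 of 7 interferon genes measured fell below the filter.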

Other observations

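Of 8 plasma cell markers tested, 3 had a lower mean at an unadjusted limma p under 0.05: Sdc1 (-2.36), Slamf7 (-2.15) and Ell2 (-1.38), genes of plasma cells, whose formation needs Irf4. They were picked after their values were seen, and 20.9% of all genes were lower at that p. The brightest of that list, Mzb1 and Jchain, had 0.47 and 0.46, and its median, 0.02, changed sign in 6 of the alternatives. Of 9 later B-cell markers tested, 3 had a lower mean (Fcer2a -1.59, Cd22 -1.36 and Cd72 -1.26) and 6 a higher one, from 0.21 for Tnfrsf13c to 1.56 for Ms4a1. Cd72 was lower and Ms4a1 higher at an unadjusted limma p under 0.05, each 11.1% of that list, beside 20.9% and 5.32% of all genes. The median of that list, 0.25, was 0.09, 0.04 and 0.51 without deficient replicates 1, 2 and 3 in turn. All 9 neutrophil markers tested had a higher mean, as 37.7% of all genes did, with a median of 1.29. The median of the T-cell and NK-cell list was 0.82. Of the erythroid list 3 markers passed the filter, Klf1 among them only through the deficient arrays. With the replicate number as a block, 4 neutrophil markers were higher at an unadjusted limma p under 0.05, against 0 without it. Of all genes 6.72% were higher at that p with the block and 5.32% without it. Without deficient replicate 3 the neutrophil median was -0.55 and that of the T-cell and NK-cell list was -0.03.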
